A study of Mus musculus with 12 samples.

Results

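Monosodium glutamate (MSG) given on top of aspartame (ASP) was examined in visceral adipose tissue by setting the 3 arrays titled ASP+MSG+TFA against the 3 arrays titled ASP+TFA, 6 of the 12 arrays of the series. The arrays were taken by these titles. All mice were male C57Bl/6J offspring, 20 weeks old, of dams that had eaten the same diet for 3 weeks before mating. ASP+MSG+TFA mice drank water with 0.75 g/L MSG besides aspartame at 0.25 g/L, and ASP+TFA mice drank water with 0.25 g/L aspartame. Both diets shared a feed with 20% (w/w) partially hydrogenated shortening, holding 8.68% (w/w) trans fatty acids (TFA). Exposure ran through pregnancy and lactation up to tissue collection. No animal fed without trans fat or without aspartame stands in this comparison. The other 6 arrays came from mice given the TFA feed with MSG (MSG+TFA) or with plain water (TFA). Each array carried RNA pooled from several of the 15 mice of a diet, and the tissue joined epididymal pads with omental, mesenteric and other fat next to the reproductive organs, so p-values measure the spread between pools and not between mice.

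Adipose tissue stores triglyceride in adipocytes and holds a stromal compartment of preadipocytes, fibroblasts, vessels, mesothelium and immune cells, among them macrophages and B cells. Adipocytes burn fatty acids in mitochondria, where beta-oxidation and the citric acid cycle feed the respiratory chain, and PPAR nuclear receptors with their coactivator PGC-1 alpha control much of that programme. MSG supplies glutamate, and aspartame is a dipeptide ester of aspartate and phenylalanine.

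A gene's level is the median log2 intensity of the probe sets that name only that gene, and 20358 genes were measured. Differences are ASP+MSG+TFA minus ASP+TFA in log2 units, with the standard error (SE) of limma's fit over the 12 arrays. That SE also takes in the spread among the MSG+TFA and TFA pools. With the 6 arrays alone it was 0.10 instead of 0.18 for Nkg7 and 0.20 instead of 0.18 for Cd79a. Calls required a difference of 1.4-fold or more and an adjusted p under 0.05, and 0 of 20358 genes (0%) were called. The smallest adjusted p was 0.271, for Cd79a, and the next was 1.00. With the 6 arrays alone limma's smallest adjusted p was 0.995. At an unadjusted p under 0.05, where chance alone gives about 5%, limma found 165 genes higher (0.81%) and 157 genes lower (0.771%) in ASP+MSG+TFA tissue. Arrays of the 2 diets did not overlap, in the sense that every ASP+MSG+TFA array lay on the same side of every ASP+TFA array, for 674 genes higher (3.31%) and 1112 genes lower (5.46%). The median difference over all genes was -0.013, and the middle 95% of genes lay from -0.38 to 0.52. The statements on single genes below are therefore values with their errors, and the counts of list members are to be read against these shares.

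The adipose label held on all 6 arrays, and RNA of neighbouring organs was present on some of them. The 14 adipocyte markers measured had a median level of 12.77, 12.85 and 12.82 on the ASP+MSG+TFA arrays, replicates 1 to 3, and of 12.91, 12.56 and 12.93 on the ASP+TFA arrays, and adiponectin (Adipoq) stood between 13.06 and 13.42 on all of them. The 29 epididymis genes had medians of 11.49, 11.57 and 5.39 with ASP+MSG+TFA and of 10.85, 12.34 and 5.92 with ASP+TFA, high on replicates 1 and 2 and low on replicate 3 of both diets. The seminal vesicle list (8 genes) was high on ASP+MSG+TFA replicate 1 (13.31) and ASP+TFA replicate 2 (13.57) and at 5.16 to 5.53 on the others. The liver list (16 genes) stood at 10.30 on ASP+MSG+TFA replicate 1 and at 5.88 to 6.68 elsewhere, and the spermatid list (19 genes) at 8.37 on ASP+MSG+TFA replicate 3 and 7.69 on ASP+TFA replicate 2, with 5.70 to 6.43 on the other arrays. The 1177 smell receptor genes were taken as a measure of background. Their median levels lay between 5.44 and 5.63 on the 6 arrays, and between 6.40 and 6.76 on 4 arrays of the other diets. This background was itself slightly lower in ASP+MSG+TFA tissue. Of the receptor genes 356 were above and 821 below 0 (median -0.068), and 1.44% were higher and 6.46% lower without overlap. Lower values of dim genes are to be read against that. Their 90th percentile on the 6 arrays, 6.22, is called the dim level here.

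**Figure D1:**
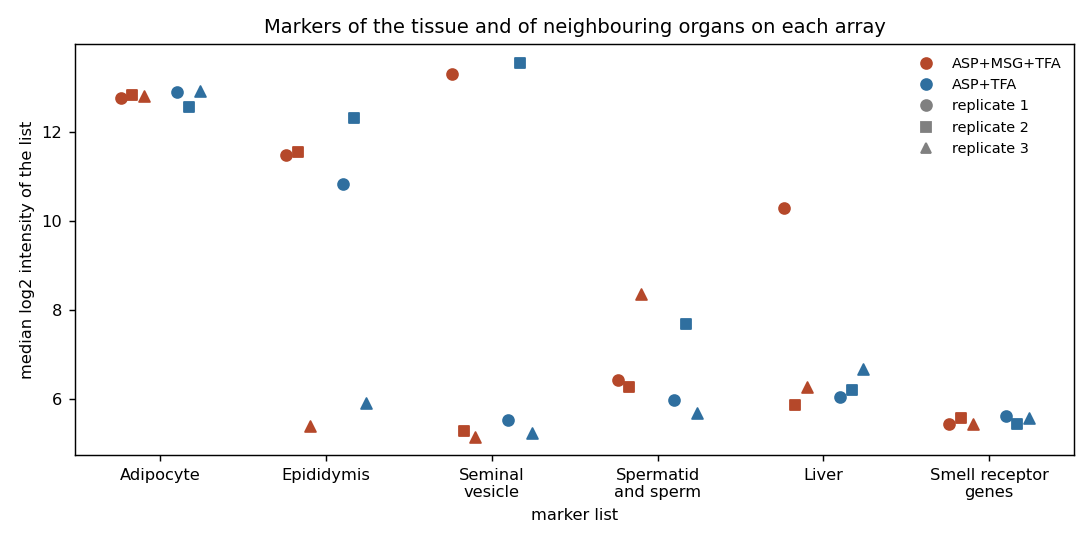
Median log2 intensity of marker lists (y axis) on each of the 6 arrays, with ASP+MSG+TFA left of ASP+TFA in each column and 1 symbol shape per replicate number. Adipocyte markers lie close together on all arrays, while epididymis markers are low on replicate 3 of both diets and liver markers are high on ASP+MSG+TFA replicate 1 alone.

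Promoter sequence is given for 4 genes at the front of the groups described below, from the RefSeq table of build GRCm38.p6, each from upstream of the annotated start into the first bases of the transcript, 300 bases in all, 5' to 3' on the gene's strand. Cd79a (chr7:24897247-24897546, plus strand) encodes a chain of the B cell receptor, Cox6a1 (chr5:115348909-115349208, minus strand) and Uqcrh (chr4:116075021-116075320, minus strand) encode subunits of respiratory complexes IV and III, and Cxcl10 (chr5:92348840-92349139, minus strand) is a chemokine induced by interferon. Capitals mark matches on either strand to GCGCNTGCG (core of the NRF1 motif) or GGAAGTG (ETS factors) in Cox6a1 and Uqcrh, to GGAAGTG in Cd79a, and to TTTCNNTTT (core of the interferon response element) in Cxcl10.
Cd79a: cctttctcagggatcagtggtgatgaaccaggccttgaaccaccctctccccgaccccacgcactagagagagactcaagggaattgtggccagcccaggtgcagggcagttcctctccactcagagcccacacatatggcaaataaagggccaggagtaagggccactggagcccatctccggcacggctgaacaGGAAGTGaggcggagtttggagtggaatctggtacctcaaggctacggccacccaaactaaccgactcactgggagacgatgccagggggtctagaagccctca
Cox6a1: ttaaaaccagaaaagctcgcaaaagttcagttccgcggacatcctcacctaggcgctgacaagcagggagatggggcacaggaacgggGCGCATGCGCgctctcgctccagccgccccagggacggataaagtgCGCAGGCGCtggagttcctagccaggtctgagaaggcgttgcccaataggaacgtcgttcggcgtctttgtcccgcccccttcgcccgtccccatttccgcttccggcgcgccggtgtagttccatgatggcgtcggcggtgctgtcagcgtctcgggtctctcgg
Uqcrh: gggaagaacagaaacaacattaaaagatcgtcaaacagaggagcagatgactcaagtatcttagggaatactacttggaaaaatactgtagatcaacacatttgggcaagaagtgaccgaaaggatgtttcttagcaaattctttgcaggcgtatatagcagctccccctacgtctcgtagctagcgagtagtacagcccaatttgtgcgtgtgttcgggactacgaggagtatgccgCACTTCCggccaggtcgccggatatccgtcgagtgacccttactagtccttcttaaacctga
Cxcl10: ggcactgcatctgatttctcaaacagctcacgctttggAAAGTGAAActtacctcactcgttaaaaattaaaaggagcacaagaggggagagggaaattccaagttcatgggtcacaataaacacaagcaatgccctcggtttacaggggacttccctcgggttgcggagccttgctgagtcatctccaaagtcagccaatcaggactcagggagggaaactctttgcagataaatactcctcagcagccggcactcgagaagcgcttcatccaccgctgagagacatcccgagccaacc

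The NRF1 core was found in promoters of 24 of 64 respiratory chain genes with an entry (37.5%), beside 10.5% of the 15765 measured genes with one and 7.12% of all 27025 genes of the promoter table. It was present in 6 of the 20 (30%) whose arrays did not overlap and in 18 of the other 44 (40.9%). The ETS core was found in 11 of the 64 (17.2%), beside 13.7% of measured genes and 12.5% of all. The interferon core, whose letters are short and partly free, was found in 19 of 24 interferon response genes (79.2%), beside 11.1% of measured genes and 12.1% of all. In Cox6a1 the first capital stretch holds overlapping matches of both strands. Cox6a1 had 3 NRF1 matches and 0 ETS matches, and Uqcrh had 0 NRF1 matches and 1 ETS match. These matches describe the letters of the windows and no binding was measured.

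Genes of the respiratory chain stood lower in ASP+MSG+TFA tissue by small amounts that did not pass the test. Of 75 measured subunits of complexes I to V, 73 had a difference below 0 and 2 above it (Ndufa8 and Ndufa11). The arrays of 24 subunits (32.0%) did not overlap, all of them lower, where 5.46% of all genes were lower without overlap, and the median difference was -0.14 beside -0.013 over all genes. The subunits share mitochondria and RNA pools and are not independent, 3 had an unadjusted p under 0.05, and none was called. All 75 stood above the dim level.

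The muscle-type subunits of cytochrome c oxidase, complex IV, differed most. Cox8b stood at 11.36, 11.42 and 11.14 on the ASP+MSG+TFA arrays, replicates 1 to 3, against 11.81, 11.64 and 11.85 on the ASP+TFA arrays. Cox7a1 stood at 8.79, 8.88 and 8.86 with ASP+MSG+TFA, against 9.40, 9.11 and 9.35 with ASP+TFA. In both genes every ASP+MSG+TFA array was below every ASP+TFA array. The difference was -0.46 ± 0.20 (SE) for Cox8b and -0.44 ± 0.19 for Cox7a1, and the adjusted p from limma was 1.00 for both. Cox6a1, the widely expressed form of another complex IV subunit, stood at 11.47, 11.22 and 11.62 with ASP+MSG+TFA, against 11.83, 11.64 and 11.86 with ASP+TFA. The lowest ASP+TFA array lay just above the highest ASP+MSG+TFA array, and the difference was -0.34 ± 0.14.

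Other complexes differed by less. Uqcrh, the hinge protein of complex III, stood at 11.69, 11.69 and 11.84 with ASP+MSG+TFA, against 12.07, 11.90 and 12.02 with ASP+TFA, without overlap (-0.26 ± 0.12). Complex I, which takes electrons from NADH, had 33 of 35 subunits below 0, 11 of them without overlap, and a median of -0.15. Its members with the smallest p were Ndufa10 (-0.21 ± 0.12), Ndufb5 (-0.24 ± 0.14) and Ndufv2 (-0.18 ± 0.11). Complexes II to V had 40 of 40 below 0 and a median of -0.13. Without ASP+TFA replicate 1 these medians were -0.091 for complex I and -0.068 for complexes II to V, and without ASP+TFA replicate 2 that of complexes II to V was -0.20. Taken from the brightest probe set alone, the differences were -0.007 for Cox6a1, -0.12 for Ndufa10, -0.13 for Ndufb5 and -0.068 for Ndufv2.

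**Figure D2:**
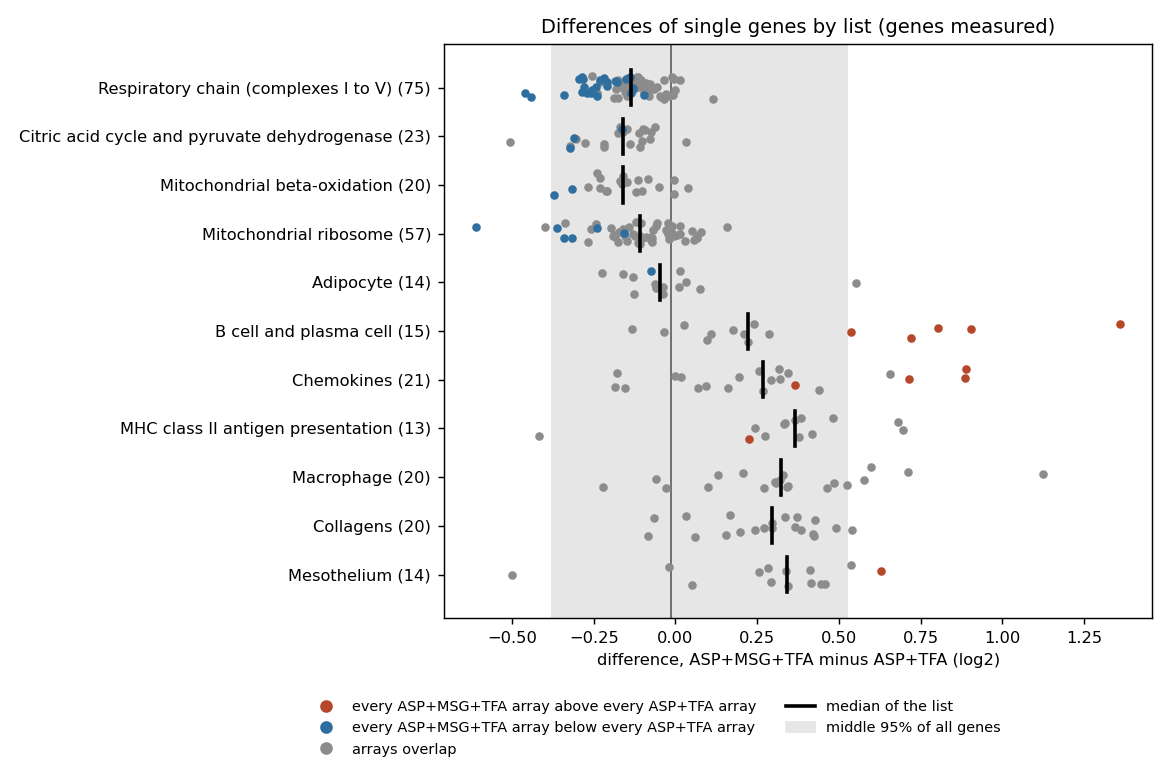
Difference of each gene, ASP+MSG+TFA minus ASP+TFA in log2 units (x axis), for 11 gene lists (rows, with the number of genes measured). Red points are genes with every ASP+MSG+TFA array above every ASP+TFA array, blue points the opposite, grey points overlap, black bars are list medians, the grey band holds the middle 95% of all genes and the grey line their median. Respiratory chain points lie below 0 in 73 of 75 cases, and most lie inside the band.

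Fuel pathways that feed the chain had the same sign. The shares lower without overlap were 13% for the cycle, 10% for beta-oxidation and 10.5% for the mitochondrial ribosome, beside 5.46% of all genes. The citric acid cycle and pyruvate dehydrogenase list had 22 of 23 members below 0 (3 without overlap, median -0.16), with Pdk1 (-0.51 ± 0.17) and Pdk2 (-0.31 ± 0.15), kinases that switch pyruvate dehydrogenase off, and Dlat (-0.32 ± 0.17), a core subunit of it. Mitochondrial beta-oxidation had 19 of 20 below 0 (2 without overlap, median -0.16), with Eci1, an enoyl-CoA isomerase, at -0.37 ± 0.17 and Hadhb, of the trifunctional protein, at -0.24 ± 0.16. The mitochondrial ribosome had 47 of 57 below 0 (6 without overlap, median -0.11), with Mrps31 at -0.36 ± 0.15 and Mrps10 at -0.32 ± 0.14. Without ASP+TFA replicate 1 the medians were -0.077 for the cycle, -0.11 for beta-oxidation and -0.050 for the mitochondrial ribosome, and without ASP+TFA replicate 2 they were -0.28 and -0.27 for the first pair. With the brightest probe set Dlat, Mrps31 and Mrps10 stood just above 0, Pdk1 at -0.28 and Pdk2 at -0.10, and Hadhb was -0.39 without ASP+TFA replicate 2 and -0.12 without ASP+TFA replicate 3. The sign was less uniform in other protein synthesis and protein turnover genes. The cytosolic ribosome had 18 members above and 25 below 0 (1 higher and 5 lower without overlap, median -0.041). The proteasome had 17 above and 14 below (0 without overlap, median 0.006). Without the replicate 3 arrays of both diets the cytosolic ribosome had 10 above and 33 below 0 (median -0.094). Between those 2 arrays alone it had 31 above and 12 below (median 0.078).

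Peroxisomal genes gave the clearest single member among the fat-oxidation enzymes. Ehhadh, the bifunctional enzyme of peroxisomal beta-oxidation and a known PPAR alpha target, stood at 10.54, 10.78 and 10.34 with ASP+MSG+TFA, against 11.23, 10.92 and 11.09 with ASP+TFA. All 3 ASP+MSG+TFA arrays lay below all 3 ASP+TFA arrays, with a difference of -0.52 ± 0.17, an unadjusted p of 0.0113 and an adjusted p of 1.00 in limma. In the whole peroxisomal list 18 of 20 members were below 0 (2 without overlap, or 10% beside 5.46% of all genes, median -0.12). That median was -0.043 without ASP+TFA replicate 1, -0.20 without ASP+TFA replicate 2 and -0.054 without ASP+MSG+TFA replicate 3, and Ehhadh differed by -0.34 with its brightest probe set.

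Of the 16 PPAR coactivators and mitochondrial biogenesis factors, 12 were below 0 and 5 (31.2%, beside 5.46% of all genes) were lower without overlap (median -0.036). The median was -0.019 without ASP+TFA replicate 1, -0.13 without ASP+TFA replicate 2, and -0.069, -0.074, -0.12 and -0.11 without ASP+TFA replicate 3 and each of ASP+MSG+TFA replicates 1 to 3. Ppargc1a, which encodes PGC-1 alpha, stood at 8.10, 7.85 and 8.22 with ASP+MSG+TFA, against 9.10, 8.60 and 8.18 with ASP+TFA. ASP+TFA replicate 3 lay inside the ASP+MSG+TFA range, and the difference of -0.57 ± 0.23 was -0.87 without the replicate 3 arrays and 0.04 between those 2 arrays alone. Ppargc1b, its relative, differed by -0.44 ± 0.27 and Tfam, the mitochondrial DNA packaging factor, by -0.37 ± 0.22, both without overlap. Ppargc1a differed by -0.33 and Ppargc1b by -0.25 without ASP+TFA replicate 1, and without ASP+MSG+TFA replicate 2 Tfam differed by -0.20. With the brightest probe set Ppargc1a differed by -0.31 and Tfam by -0.21, and with the mean of probe sets Ppargc1b by -0.23.

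Enzymes at the entry of fat synthesis also stood lower without passing the test. Acaca, the acetyl-CoA carboxylase of the cytosol, stood at 11.47, 11.49 and 11.51 with ASP+MSG+TFA, against 12.06, 11.62 and 11.97 with ASP+TFA. Acacb, its mitochondrial counterpart whose product restrains fatty acid import, stood at 10.85, 10.91 and 10.70 with ASP+MSG+TFA, against 11.60, 10.97 and 11.30 with ASP+TFA. Neither gene overlapped between diets, with differences of -0.39 ± 0.15 and -0.47 ± 0.21, and ASP+TFA replicate 2 was the nearest array in both. With its brightest probe set Acacb differed by -0.22. The synthesis list as a whole had 15 of 20 members below 0, 4 of them without overlap (20%, beside 5.46% of all genes). Its median was -0.069, and -0.032 without ASP+TFA replicate 1, -0.16 without ASP+TFA replicate 2 and -0.040 without ASP+MSG+TFA replicate 2.

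Adipocyte identity genes differed little. The adipocyte markers had 5 members above and 9 below 0 (median -0.048), and the lipid droplet, uptake and lipolysis list 9 above and 10 below (median -0.037), among them Slc27a1, a fatty acid transporter, at -0.29 ± 0.18 (-0.040 with its brightest probe set). Both medians stood just above 0 without ASP+TFA replicate 1 (0.018 and 0.017) and were -0.15 and -0.10 without ASP+TFA replicate 2. Leptin (Lep), the adipocyte hormone that reports fat mass, stood at 12.97, 12.95 and 13.23 with ASP+MSG+TFA, against 12.48, 12.02 and 12.99 with ASP+TFA. ASP+TFA replicate 3 reached the ASP+MSG+TFA arrays, and the difference was 0.55 ± 0.23 with an adjusted p of 1.00 in limma. It was 0.31 without ASP+TFA replicate 2. Of 15 brown and beige adipocyte genes, 7 were above and 8 below 0, and Ucp1, the uncoupling protein that defines brown fat, stood at 4.78 to 5.08 with ASP+MSG+TFA and 4.93 to 5.30 with ASP+TFA, below the dim level on every array.

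B cell genes gave the lowest p of the comparison. Cd79a, a signalling chain of the B cell receptor, stood at 6.97, 6.55 and 6.37 with ASP+MSG+TFA, against 5.53, 5.00 and 5.27 with ASP+TFA. The lowest ASP+MSG+TFA array lay 0.84 above the highest ASP+TFA array. The difference was 1.36 ± 0.18, with an unadjusted p of 1.33e-05 and an adjusted p of 0.271 in limma. With the 6 arrays alone limma's unadjusted p was 4.25e-04 for Cd79a and lower, at 2.12e-04, for Nkg7. All 3 ASP+TFA arrays were under the dim level, so no fold is given. Over the alternative settings the difference of Cd79a ranged from 0.98 to 1.49.

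Its partner chain and a B cell surface protein followed. Cd79b stood at 8.18, 7.74 and 7.63 with ASP+MSG+TFA, against 7.45, 6.75 and 6.93 with ASP+TFA (0.80 ± 0.22). Ms4a1, which encodes CD20, stood at 7.35, 6.73 and 6.98 with ASP+MSG+TFA, against 5.86, 5.83 and 6.65 with ASP+TFA (0.90 ± 0.24). Jchain, which links secreted IgA and IgM and marks plasma cells, stood at 8.64, 8.54 and 8.44 with ASP+MSG+TFA, against 8.08, 7.28 and 8.11 with ASP+TFA (0.72 ± 0.24). None of these genes overlapped between diets, and limma's adjusted p was 1.00 for each. Without the arrays high in seminal vesicle RNA the differences were 0.49 for Cd79b, 0.60 for Ms4a1 and 0.40 for Jchain, Cd79b differed by 0.52 with the mean of its probe sets, and Jchain by 0.45 without ASP+TFA replicate 2.

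Of 15 B cell and plasma cell genes measured, 13 were above and 2 below 0, and 5 (33.3%) were higher without overlap, where 3.31% of all genes were, with a median of 0.22. The 5 were Cd79a, Cd79b, Ms4a1, Jchain and Spib, a lymphoid ETS factor (0.54 ± 0.22), and the same 5 had an unadjusted p under 0.05. Only 6 of the 15 stood above the dim level over the 6 arrays, and Pax5 and Blk, a lineage factor and a kinase of B cells, stood between 4.92 and 5.70 on every array. Among the 6 was Ebf1, at 10.27 to 11.02, which was also listed with the adipocyte transcription factors and so is not particular to B cells here. Without the arrays high in seminal vesicle RNA the list median was 0.033, without ASP+TFA replicate 2 it was 0.053 and without ASP+MSG+TFA replicate 1 it was 0.12. Cd79a kept its direction in every setting tried, but with no overlap between diets leaving arrays out could not reverse it. Of 4 lymph node stroma genes measured, which include Cxcl13, 3 were above 0 (median 0.085), and the part of lymph node RNA in these values was not tested. In bulk tissue, more cells of a type and more RNA per cell cannot be told apart.

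**Figure D3:**
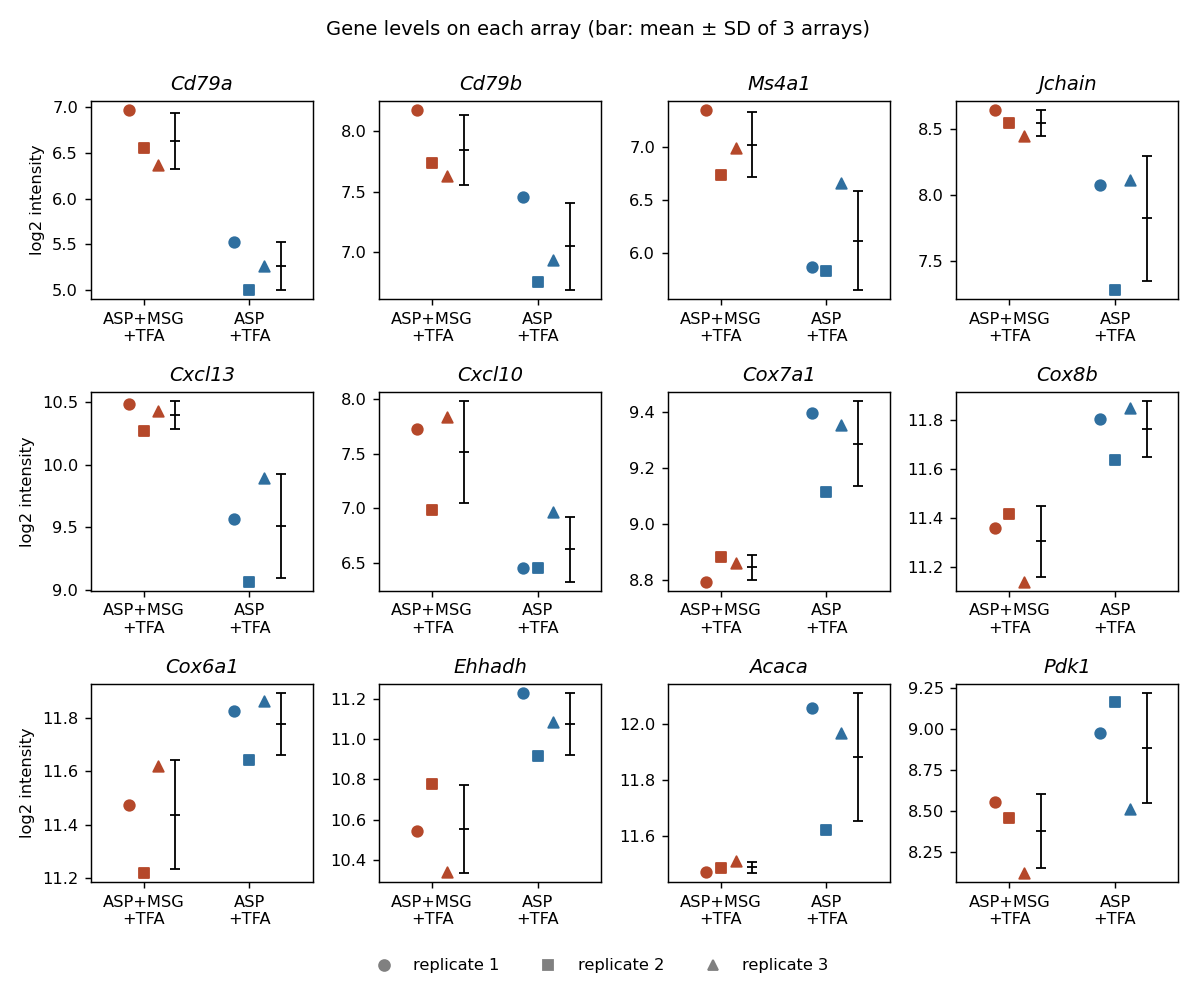
Log2 intensity (y axis, a separate range for each panel) of 12 genes on the 3 ASP+MSG+TFA arrays (red, left) and the 3 ASP+TFA arrays (blue, right), with symbol shape for the replicate number and black bars for mean ± SD. The top row and the first pair of the middle row are B cell genes and chemokines with no overlap and higher ASP+MSG+TFA levels, and the remaining panels are metabolic genes with lower ASP+MSG+TFA levels, of which Pdk1 overlaps.

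Chemokines, which draw leukocytes into tissue, were above 0 for 17 of 21 members. Of these 4 were without overlap (19.0%, beside 3.31% of all genes). The list median was 0.27 (0.11 without ASP+TFA replicate 2, 0.42 without ASP+TFA replicate 3 and 0.17 without ASP+MSG+TFA replicate 3). Cxcl13, which attracts B cells into follicles, stood at 10.49, 10.27 and 10.43 with ASP+MSG+TFA, against 9.57, 9.07 and 9.89 with ASP+TFA, and differed by 0.89 ± 0.27 without overlap (unadjusted p = 0.00798, adjusted p = 1.00 in limma). Cxcl10, a ligand of CXCR3 on T cells, stood at 7.72, 6.98 and 7.84 with ASP+MSG+TFA, against 6.45, 6.46 and 6.97 with ASP+TFA. Its ASP+MSG+TFA replicate 2 and ASP+TFA replicate 3 arrays were nearly level, and the difference was 0.89 ± 0.30, or 0.43 with its brightest probe set. Ccl5 differed by 0.36 ± 0.16 without overlap, and Ccl3 by 0.66 ± 0.27 with overlap, and by -0.11 with its brightest probe set.

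T and NK cell genes were split, with 11 above and 10 below 0 and a median of 0.040 (-0.012 without ASP+TFA replicate 1, 0.091 without ASP+TFA replicate 2, 0.19 without ASP+TFA replicate 3, and 0.017 and 0.23 without ASP+MSG+TFA replicates 2 and 3). Nkg7, a granule protein of NK cells and cytotoxic T cells, stood at 6.66, 6.64 and 6.74 with ASP+MSG+TFA, against 5.95, 5.78 and 6.00 with ASP+TFA, with all ASP+TFA arrays under the dim level (0.77 ± 0.18). With the mean of its probe sets Nkg7 differed by 0.34 and with its brightest by 0.053. Cd2, an adhesion receptor of T cells, differed by 0.64 ± 0.24 without overlap, by 0.42 with the mean of its probe sets and by 0.17 with its brightest. Cd3d, a chain of the T cell receptor complex, stood at 4.76 to 5.07 with ASP+MSG+TFA and at 4.62 to 5.03 with ASP+TFA, below the dim level. The members farthest from 0, named after their values were seen, overlapped widely. Klrb1c, an NK cell receptor, stood at 8.88, 9.46 and 5.11 with ASP+MSG+TFA, against 10.70, 10.88 and 5.01 with ASP+TFA (-1.05 ± 1.79), low on the arrays low in epididymis RNA, and the part of that RNA was not tested. Il7r, a cytokine receptor of T cells, differed by 0.85 ± 0.64.

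Interferon response genes were above 0 for 23 of 35 members. Without overlap 5 were higher (14.3%) and 1 lower (2.86%), beside 3.31% and 5.46% of all genes. The list median was 0.15, and 0.080 without ASP+TFA replicate 2 and 0.25 without ASP+TFA replicate 3. Iigp1, an interferon-induced GTPase, stood at 9.17, 8.88 and 8.94 with ASP+MSG+TFA, against 8.25, 8.37 and 8.68 with ASP+TFA (0.56 ± 0.30). Mx1, an antiviral GTPase that is defective in most laboratory strains, differed by 0.28 ± 0.14 at levels below the dim level, and by 0.11 without the arrays high in seminal vesicle RNA. Oas1g, of the oligoadenylate synthetase family, stood at 7.05, 7.28 and 7.33 with ASP+MSG+TFA, against 5.28, 6.65 and 6.25 with ASP+TFA (1.16 ± 0.35, and 0.77 without ASP+TFA replicate 1). It rests on 1 probe set and has near-identical relatives that such a probe set may also read, and Oas1b and Oas1a of the same family differed by -0.38 and -0.22.

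Macrophage, antigen presentation, complement and matrix genes were mostly above 0, and this depended on which arrays were compared. The macrophage list had 17 of 20 members above 0 (median 0.32), lipid-associated macrophage genes 13 of 15 (0.37), MHC class II presentation 12 of 13 (0.37), complement 15 of 18 (0.30), collagens 18 of 20 (0.29) and matrix proteins, proteases and inhibitors 32 of 35 (0.21). Of the macrophage, complement and collagen genes, 0 were without overlap in either direction. ASP+TFA replicate 3 stood above both other ASP+TFA arrays for 19 of 20 macrophage genes, 15 of 18 complement genes, 15 of 20 collagens and 31 of 35 matrix genes.

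With the replicate 3 arrays left out of both diets the medians were 0.47 for macrophage genes, 0.42 for complement and 0.43 for collagens. Without ASP+TFA replicate 3 alone the medians were 0.56 for macrophage, 0.67 for lipid-associated macrophage, 0.59 for MHC class II, 0.47 for complement, 0.46 for collagen and 0.38 for matrix genes. Without ASP+TFA replicate 2 they were 0.18, 0.17, 0.22, 0.12, 0.18 and 0.056 in that order. Without the 2 arrays high in seminal vesicle RNA the medians were 0.19 for macrophage, 0.24 for lipid-associated macrophage, 0.14 for complement, 0.16 for collagen and 0.11 for matrix genes. The lipid-associated macrophage median was also 0.13 without ASP+TFA replicate 1 and 0.20 without ASP+MSG+TFA replicate 3. Between the replicate 3 arrays alone, 1 a diet and with no test, the medians in the same order were -0.040, 0.062, 0.10, 0.040, 0.006 and 0.028. Those 2 arrays are the ones low in epididymis RNA, and the part of that RNA in these values was not tested. Between the replicate 3 arrays the median was 0.13 for B cell genes (8 above and 7 below 0) and 0.064 for chemokines (13 above and 8 below). It was 0.13 for mesothelium genes (9 above and 5 below) and -0.084 for the respiratory chain (56 of 75 below 0).

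**Figure D4:**
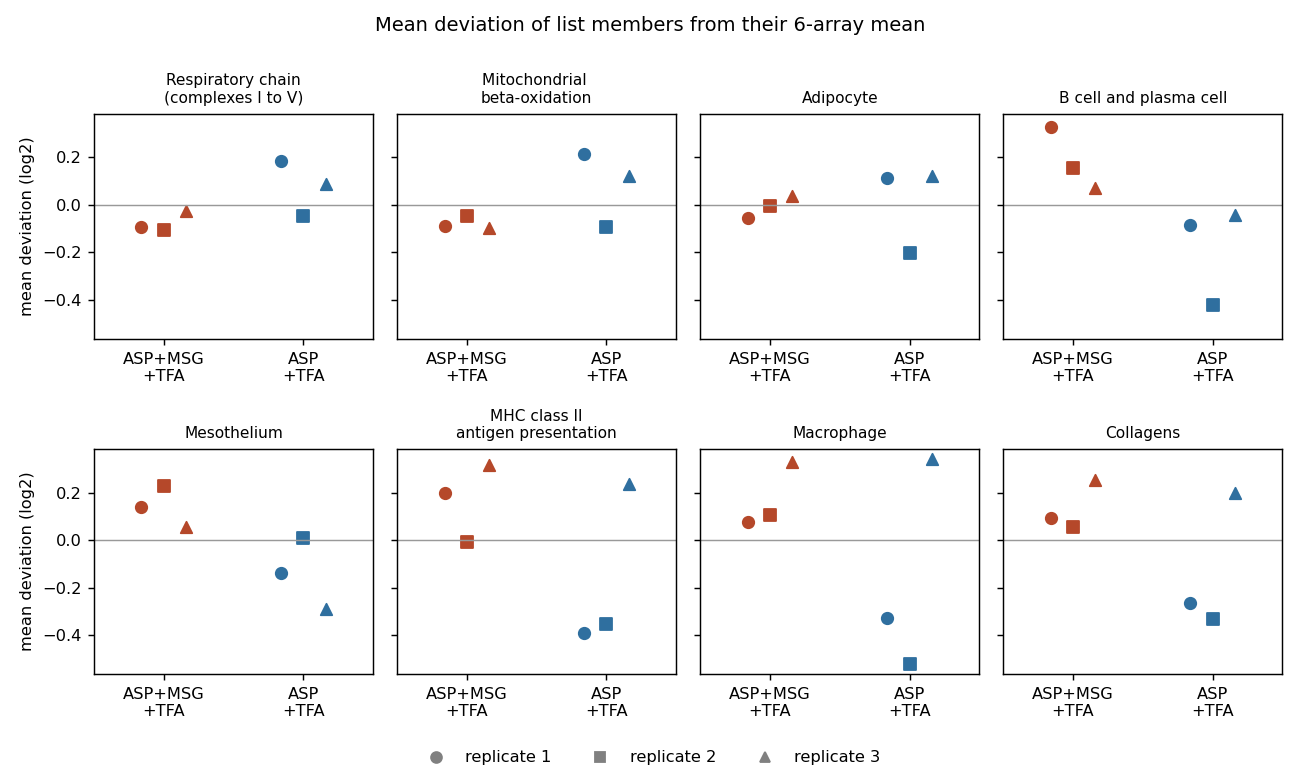
Mean deviation of a list's members from their own 6-array means, in log2 units (y axis), on each ASP+MSG+TFA array (red, left) and ASP+TFA array (blue, right), with symbol shape for the replicate number. For macrophage, MHC class II and collagen genes ASP+TFA replicate 3 sits with the ASP+MSG+TFA arrays, and for respiratory chain and beta-oxidation genes ASP+TFA replicate 2 does.

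Single genes of these lists had the same arrangement. Itgax, which encodes CD11c and marks inflammatory macrophages and dendritic cells, stood at 7.29, 7.65 and 7.88 with ASP+MSG+TFA, against 5.72, 6.32 and 7.41 with ASP+TFA (1.12 ± 0.57). Thbs1, the matrix glycoprotein thrombospondin 1, stood at 10.57, 11.24 and 11.05 with ASP+MSG+TFA, against 9.59, 9.28 and 10.83 with ASP+TFA (1.05 ± 0.41). In both the ASP+TFA replicate 3 array lay inside the ASP+MSG+TFA range, and without the replicate 3 arrays the differences were 1.45 and 1.47. Itgax differed by 0.74 without ASP+TFA replicate 1.

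Alox15, an arachidonate lipoxygenase of resident macrophages that is on none of these lists but among the genes picked for quantitative PCR, was separated between diets. The list members without overlap were Spp1, Tnc, Timp2 (0.29 ± 0.21) and H2-DMa (0.23 ± 0.19). Alox15 stood at 8.32, 8.21 and 8.10 with ASP+MSG+TFA, against 7.08, 6.82 and 7.84 with ASP+TFA (0.96 ± 0.31). Spp1, osteopontin, stood at 7.40, 7.05 and 7.77 with ASP+MSG+TFA, against 6.12, 6.27 and 7.03 with ASP+TFA (0.94 ± 0.43). The matrix protein tenascin C (Tnc) stood at 7.25, 7.06 and 7.19 with ASP+MSG+TFA, against 6.30, 5.58 and 7.05 with ASP+TFA (0.86 ± 0.31). In each of these genes ASP+TFA replicate 3 was the highest ASP+TFA array and the nearest to the ASP+MSG+TFA arrays, and limma's adjusted p was 1.00. With the brightest probe set Alox15 differed by 0.24 and Spp1 by 0.38, and without ASP+TFA replicate 2 Tnc differed by 0.50. Vsig4 (0.58 ± 0.32), H2-Ob (0.70 ± 0.26), Ciita (0.48 ± 0.27), C4b (0.57 ± 0.28), Timp1 (0.66 ± 0.41), Col6a1 (0.54 ± 0.31) and Col5a3 (0.43 ± 0.22) overlapped. Timp1 differed by 0.26 and Ciita by 0.30 without ASP+TFA replicate 1. With ASP+TFA replicate 2 left out the differences were 0.31 for Ciita, 0.35 for C4b, 0.34 for Vsig4 and 0.24 for Col5a3. With ASP+TFA replicate 3 left out they were 0.83 for Ciita, 1.12 for Timp1 and 0.64 for Col5a3, and without ASP+MSG+TFA replicate 1 H2-Ob differed by 0.45. With the brightest probe set Col6a1 differed by 0.12 and Ciita by 0.069, and H2-Ob and Col5a3 stood below 0.

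Stromal and vascular lists were above 0 as well. Mesothelium genes, which mark the lining of visceral fat, were above 0 for 12 of 14 members (median 0.34), and Gpm6a stood at 9.19, 9.31 and 9.36 with ASP+MSG+TFA, against 8.71, 8.17 and 9.10 with ASP+TFA (0.63 ± 0.22). Without ASP+TFA replicate 3 the mesothelium median was 0.52. Bnc1 (0.54 ± 0.28) and Lrrn4 (0.46 ± 0.25) overlapped. Fibroblast and preadipocyte genes were above 0 for 14 of 15 (median 0.20, and 0.011 without ASP+TFA replicate 2), with Cd34 at 0.20 ± 0.12 and, as the exception, the preadipocyte receptor Pdgfra at -0.37 ± 0.18. Endothelium genes were above 0 for 14 of 16 (median 0.20, and 0.047 without ASP+TFA replicate 2 and 0.32 without ASP+TFA replicate 3), with the tight junction gene Cldn5 at 0.62 ± 0.29, and of 6 lymphatic endothelium genes 5 were above 0 (median 0.28, and 0.45 without ASP+TFA replicate 1 and 0.43 without ASP+MSG+TFA replicate 2), with Prox1, the lymphatic master regulator, at 0.55 ± 0.20 and below the dim level. Leaving out ASP+TFA replicate 2 gave differences of 0.38 for Gpm6a, 0.26 for Lrrn4 and 0.40 for Cldn5, without ASP+TFA replicate 3 Bnc1 differed by 0.86, and without ASP+MSG+TFA replicate 1 Prox1 differed by 0.33. With the brightest probe set Pdgfra differed by -0.16 and Prox1 by 0.19.

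Genes that sense or handle the additives did not pass the test. Of 25 genes for glutamate, aspartate and phenylalanine transport and metabolism, 8 were above and 17 below 0 (median -0.13, and 0.027 without ASP+TFA replicate 2, -0.067 without ASP+TFA replicate 1 and -0.070 without ASP+MSG+TFA replicate 3). Asns, which makes asparagine from aspartate, stood at 11.06, 11.11 and 11.08 with ASP+MSG+TFA, against 11.53, 11.25 and 11.33 with ASP+TFA (-0.29 ± 0.16), and Slc1a2, a glutamate transporter mainly of glia, differed by 0.48 ± 0.30, with ASP+MSG+TFA replicate 1 alone above the dim level and 0.21 without it. Of 26 glutamate and sweet or umami receptors only 2 had a mean above the dim level. They were Gria3 (0.34 ± 0.22, without overlap) and Gria2, both AMPA receptor genes and named after their values were seen. Gria2 stood at 6.15, 6.93 and 4.72 with ASP+MSG+TFA, against 7.99, 8.16 and 5.00 with ASP+TFA (-1.12 ± 0.86), low on the arrays low in epididymis RNA, and the part of that RNA was not tested. The NMDA receptor genes Grin1 (-0.12 ± 0.24), Grin2c (-0.37 ± 0.24) and Grin2a (0.03 ± 0.21) and the kainate receptor genes Grik2 (-0.23 ± 0.13), Grik3 (0.27 ± 0.25) and Grik4 (-0.27 ± 0.16) stood between 4.62 and 5.80 on all arrays, where array values cannot be told from background, and all of them but Grin2c changed sign under at least 1 alternative. Insulin signalling genes were above 0 for 6 of 23 (median -0.076, and -0.038 without ASP+TFA replicate 1 and -0.12 without ASP+TFA replicate 2), and Grb14, an inhibitor of the insulin receptor, differed by 0.45 ± 0.21, and by 0.20 with its brightest probe set.

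Other genes with small p values fell outside the lists. The limits for naming were no overlap, 1.4-fold and a mean above the dim level in the brighter diet, which were met by 96 genes. A dim gene could meet the last limit only through the diet where it was high, so the number is no result, and Zcchc3 and Kap, like Cd79a, had means under the dim level over the 6 arrays. The smallest p belonged, beside those above, to Zcchc3, a nucleic acid sensor cofactor (0.76 ± 0.16), Hhex, a homeobox factor of blood and vessels (0.83 ± 0.19), Nexn, an actin-binding protein (0.70 ± 0.17), Map1a, a microtubule protein (0.85 ± 0.23), and Tifab, an inhibitor of TRAF6 signalling (0.94 ± 0.28). With the mean of probe sets the differences were 0.41 for Zcchc3, 0.47 for Hhex, 0.32 for Nexn and 0.34 for Tifab, and with the brightest probe set 0.29 for Zcchc3, 0.49 for Hhex and 0.62 for Tifab. Sfrp5, a secreted WNT inhibitor made by adipocytes, stood at 9.61, 9.66 and 9.96 with ASP+MSG+TFA, against 8.20, 7.78 and 9.60 with ASP+TFA (1.22 ± 0.50), and ASP+TFA replicate 3 came level with the lowest ASP+MSG+TFA array.

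The 3 other large higher values rested on single arrays or on genes of other organs. Ugt2b1 and Lcat, both liver genes, stood at 8.63 and 8.48 on ASP+MSG+TFA replicate 1, the array high in liver markers, and at 5.23 to 5.26 and 6.14 to 6.28 on the other ASP+MSG+TFA arrays. Kap, the kidney androgen-regulated protein gene, stood at 6.96, 5.35 and 7.14 with ASP+MSG+TFA, against 4.78, 5.08 and 5.11 with ASP+TFA (1.49 ± 0.50). Without ASP+MSG+TFA replicate 1 the difference was 0.25 for Ugt2b1 and 0.44 for Lcat, and with the brightest probe set 0.046 and 0.15.

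The same limits were met by 42 lower genes. Acsm3, a mitochondrial medium-chain acyl-CoA synthetase, stood at 7.48, 7.06 and 7.24 with ASP+MSG+TFA, against 8.98, 8.28 and 8.08 with ASP+TFA (-1.19 ± 0.45). Acot3, a peroxisomal acyl-CoA thioesterase with close relatives on the array, stood at 5.78, 5.38 and 5.09 with ASP+MSG+TFA, against 6.47, 5.86 and 6.82 with ASP+TFA (-0.97 ± 0.28). Coa6, an assembly factor of cytochrome c oxidase, stood at 6.62, 6.87 and 6.71 with ASP+MSG+TFA, against 7.09, 7.26 and 7.31 with ASP+TFA (-0.49 ± 0.13). Ptrh2, a mitochondrial peptidyl-tRNA hydrolase, differed by -0.68 ± 0.18, but by -0.22 with the mean of its probe sets and -0.052 with its brightest. None of the 4 overlapped between diets. Acot3 had a mean under the dim level over the 6 arrays and differed by -0.61 with the mean of its probe sets and -0.59 without the arrays low in epididymis RNA. These 4 were picked out of the named genes for their roles after their values were seen.

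Further lower genes had other roles. Tnfsf11, the cytokine RANKL, stood at 6.13, 6.13 and 6.09 with ASP+MSG+TFA, against 7.37, 6.47 and 7.10 with ASP+TFA (-0.86 ± 0.24), with all ASP+MSG+TFA arrays under the dim level, and differed by -0.32 with the mean of its probe sets and -0.006 with its brightest. Dbpht2 differed by -1.32 ± 0.31 (-0.78 with the mean of its probe sets and -0.64 with its brightest) and stood under the dim level on all ASP+MSG+TFA arrays. Itpka, an inositol trisphosphate kinase (-0.78 ± 0.18), Nadsyn1, the NAD synthetase (-0.59 ± 0.15), Nkx6-2, a homeobox factor of the nervous system (-0.89 ± 0.24), Nxph4, a neurexophilin (-1.12 ± 0.46), and Rps24-ps2, a pseudogene that the parent gene's RNA may feed (-0.81 ± 0.22), were likewise near that level in ASP+MSG+TFA tissue. Rnf24 (-0.70 ± 0.17) was well above it at 7.90 to 8.49 with ASP+MSG+TFA, against 8.72 to 9.03 with ASP+TFA, and Tcof1, a ribosomal RNA transcription factor, differed by -0.57 ± 0.16. Both rested on the median of probe sets, since Rnf24 differed by -0.27 and Tcof1 by -0.041 with the mean, and by -0.051 and 0.17 with the brightest. With the mean the differences were -0.45 for Itpka, -0.089 for Nadsyn1 and -0.46 for Nkx6-2, and with the brightest -0.16 for Nadsyn1 and -0.43 for Nxph4. Dbpht2, Itpka and Nadsyn1 had means under the dim level over the 6 arrays.

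Several genes had been picked for quantitative PCR on these same samples, so their direction is no independent evidence. The 12 analysed here lay 6 above and 6 below 0. Beside Thbs1, Alox15, Ehhadh, Ppargc1a, Tfam and the receptor genes given above, Col1a2 stood at 8.90, 8.71 and 9.06 with ASP+MSG+TFA, against 8.46, 8.38 and 8.95 with ASP+TFA (0.29 ± 0.21). Fibronectin (Fn1) stood at 11.98, 11.98 and 12.19 with ASP+MSG+TFA, against 11.29, 11.24 and 12.29 with ASP+TFA (0.44 ± 0.33). In both ASP+TFA replicate 3 was the highest ASP+TFA array and lay inside or above the ASP+MSG+TFA range. Without it Col1a2 differed by 0.47 and Fn1 by 0.78, and without ASP+TFA replicate 2 they differed by 0.18 and 0.26, and Fn1 by 0.28 without ASP+TFA replicate 1. A list of catabolic genes had likewise been chosen on these samples. Of its 53 measured members 47 were below 0, with a median of -0.16. Of these 11 were without overlap (20.8%, beside 5.46% of all genes).

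MSG+TFA against TFA, which shares no array with ASP+MSG+TFA against ASP+TFA, gives the values of MSG without aspartame. The median differences with and then without aspartame were -0.14 and -0.16 for the respiratory chain (73 and 72 of 75 genes below 0), -0.16 and -0.18 for beta-oxidation, 0.32 and 0.26 for macrophage genes, 0.37 and 0.33 for MHC class II genes and 0.30 and 0.27 for complement. They were 0.22 and -0.003 for B cell genes, 0.34 and -0.14 for mesothelium genes, 0.28 and -0.046 for lymphatic endothelium genes and 0.29 and 0.12 for collagens. Raised dim signal on 4 arrays of the MSG+TFA and TFA diets, 2 in each, lies under the values without aspartame, and its part in them was not tested. Through the shared fit those arrays also enter the SE of the comparison with aspartame.

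The difference between these 2 contrasts was tested gene by gene as the interaction of the additives. Cd79a stood at 5.80, 5.56 and 5.80 with MSG+TFA, against 5.83, 5.87 and 5.74 with TFA, a difference of -0.096, and its interaction of 1.46 ± 0.26 had an adjusted p of 1.00 in limma. Ms4a1 stood at 5.79 to 6.27 on the same arrays. Both lay under 6.61, the dim level computed over all 12 arrays. Values there cannot be told from background, so they cannot show whether MSG without aspartame changed these 2 genes. The interaction was 1.06 ± 0.31 for Gpm6a, 0.88 ± 0.26 for Nkg7, 0.86 ± 0.34 for Ms4a1 and 0.75 ± 0.31 for Cd79b, which are a selection. Jchain differed by 0.50 without aspartame, and its interaction was 0.22 ± 0.34. Genes of other roles lay as far from 0, with 1.30 ± 0.50 for Oas1g, 1.03 ± 0.42 for Cxcl10 and -1.09 ± 0.43 for Dbpht2. Over all genes, 0 had an interaction with an adjusted p under 0.05 in limma and 249 had an unadjusted p under 0.05, so a different response to MSG with aspartame than without it was not shown for any gene.

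**Figure D5:**
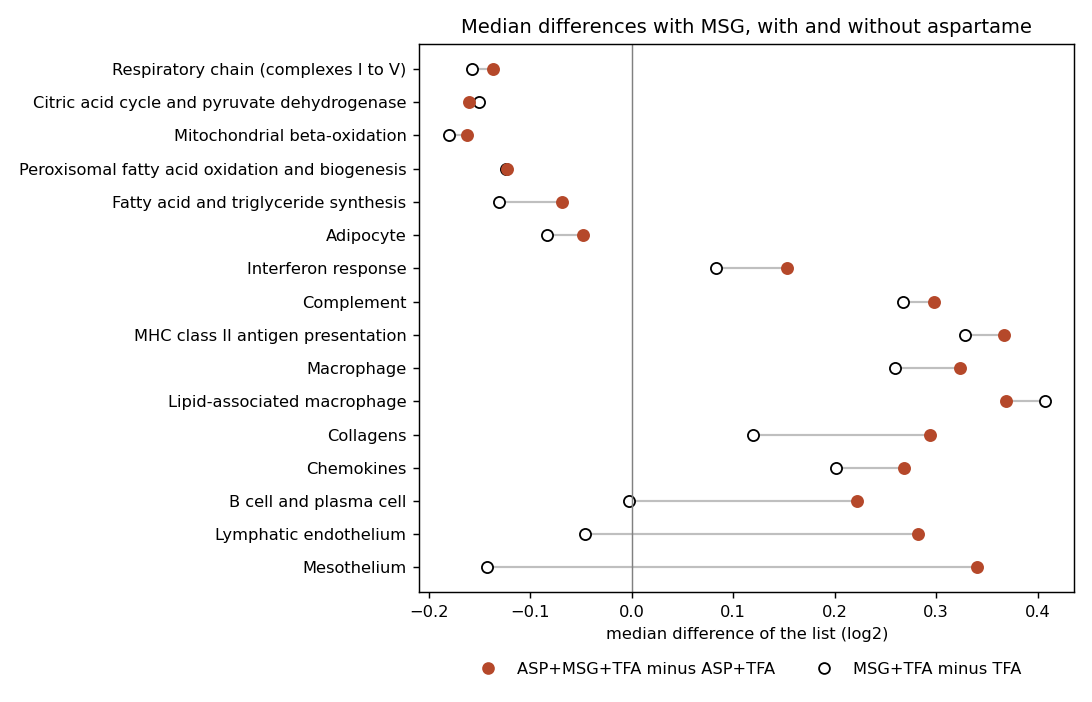
Median difference of 16 gene lists in log2 units (x axis) for ASP+MSG+TFA minus ASP+TFA (filled red) and MSG+TFA minus TFA (open black). Mitochondrial lists lie left of 0 and macrophage, MHC class II and complement lists right of 0 in both, while B cell (0.22 and -0.003) and mesothelium (0.34 and -0.14) medians lie apart.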

How the data were processed

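RNA from visceral adipose tissue was hybridised to Affymetrix Mouse Gene 1.0 ST arrays, 3 pools a diet. The deposited values are linear probe set intensities of the series matrix, which the authors normalized before deposit, and GCRMA and Partek are named in the submitters' processing notes. The genome build is not given in the sources used here. Intensities were taken to log2 here with no further scaling. Of 241576 probe sets, 212138 name 1 gene, 4672 several and 24766 none in the platform annotation, and a gene's level is the median of its probe sets (8 at the median). Array number limits the precision. limma 3.58.1 (R 4.3.3) was fitted to all 12 arrays with 1 mean a diet, 8 residual degrees of freedom and Benjamini-Hochberg adjustment, tested on simulated data first. Genes were named by a rule: without overlap, 1.4-fold and with a mean above the dim level in the brighter diet, the 10 smallest p and 5 largest differences each way, and list members by p, of which those shown are a selection. The comparison and the lists were chosen with earlier results of these data known. Columns of no sample numbered 0. Alternatives covered fewer arrays, a term for the 4 raised arrays, replicate numbers as a block, the methods' analysis of variance, probe set summaries, quantile normalization, organ RNA and each array left out. The comparison of the replicate 3 arrays alone was chosen after seeing the data. Python 3.11.15, pandas 2.3.3, numpy 2.4.6 and matplotlib 3.10.9 were used. Promoters came from RefSeq (GRCm38.p6), where 64 of 75 respiratory chain genes had an entry.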

Additional observations from a re-analysis of the deposited data

How the results depend on the processing

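The count of called genes stayed at 0 in all 26 alternatives with limma or the methods' analysis of variance. Of 2255 recomputed differences of 88 named genes, 2239 kept their direction, 0 passed the threshold, and the smallest adjusted p was 0.182 (Cd79a without ASP+MSG+TFA replicate 3). Of 756 list medians, 730 moved by no more than 1 SD and 16 changed sign. The SD is the spread within diets of a list's median level on each array, and it is wide. Falls from 0.22 to 0.033 for B cell genes, 0.15 to 0.006 for interferon response and 0.30 to 0.040 for complement stayed within it. Many of the differences and medians could not move at all, so the counts of 2239 and 730 overstate how far the differences were tried. The fits of 6 or 8 arrays, the raised arrays as a term, the replicate blocks and the analysis of variance keep the same difference of means. So does leaving out an MSG+TFA or TFA array. Genes at an unadjusted p under 0.05, 322 in all, numbered 747 with the 6 arrays of both diets, 747 with the 8 arrays without raised dim signal, 858 with the raised arrays as a term, 498 without the 2 arrays low in epididymis RNA, 202 without the 2 high in seminal vesicle RNA and 547 with the epididymis level as a covariate. The 6-array and 8-array fits are the same for this contrast, since each further array is alone in its diet. Leaving out 1 array gave 231 to 920, the highest without ASP+TFA replicate 3.

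With the replicate number as a block they numbered 892 over 6 arrays and 463 over 12 arrays, with 0 called in both. Deviations of same-numbered arrays correlated at -0.134, 0.223 and 0.536, so the numbers were not taken to pair the pools, and ASP+MSG+TFA replicate 1 correlated best with ASP+TFA replicate 2 (0.451).

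Counts of genes whose arrays do not overlap, higher, and of genes whose arrays do not overlap, lower, were 3542 and 3918 without the arrays low in epididymis RNA, 2521 and 4075 without those high in seminal vesicle RNA, 622 lower without dim genes, and 1137 to 2824 higher and 1703 to 3296 lower with 1 of the 6 arrays left out, where fewer arrays make overlap rarer by construction.

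With the mean of probe sets Mrps10 stood at 0.097. With the brightest probe set the differences were 0.17 for Tcof1, -0.36 for Grin2a, -0.52 for Grik3, 0.10 for Grik4, 0.44 for Grik2, 0.047 for Dlat, 0.025 for Mrps31, 0.11 for Mrps10, -0.11 for Ccl3, -0.036 for H2-Ob and -0.13 for Col5a3. Grin1 stood at 0.12 without the arrays low in epididymis RNA, and at -0.32 (without ASP+TFA replicate 2) to 0.067 (without ASP+TFA replicate 3) with 1 array left out. Grin2a stood at -0.033 without the arrays high in seminal vesicle RNA and at -0.045 without ASP+TFA replicate 2. The cause was not tested. Levels near the dim level, as for the NMDA and kainate receptor genes named, cannot be told from background.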
